A study of Caenorhabditis elegans with 2 samples.

Results

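The mitochondrial ribosomal protein genes of Caenorhabditis elegans were taken as every protein-coding gene whose name begins with mrpl- or mrps- in the Ensembl annotation of WBcel235, which gave 70 of 19973 coding genes on the 6 nuclear chromosomes. Of these, 41 encode proteins of the large subunit (mrpl) and 29 of the small subunit (mrps). Few of them carried a reproducible peak of the transcription factor FKH-4. In all, 5 of 70 (7.14%) had a summit of the reproducible peak set in the promoter window, which runs from 1000 bp upstream to 200 bp downstream of any coding transcription start site (TSS), and 4.77% of all coding genes did. The genes were mrps-35, mrpl-18, mrpl-28, mrpl-55 and mrps-7. Of their 5 peaks, 4 held a copy of a 14-base word with at most 2 mismatches, as did 89 of all 1189 reproducible peaks (7.49%). The word was chosen from a search of that same peak set, these 5 peaks included. In a longer list with weak peaks and background, 48 of the 70 (68.6%) had a summit in the window, beside 40.8% of coding genes.

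Mitochondrial ribosomes translate the few messages encoded by the mitochondrial genome, which specify core subunits of the respiratory chain. Their proteins are encoded in the nucleus, translated in the cytosol and imported. Some have counterparts in bacterial ribosomes and others occur only in mitochondria. In C. elegans, lowered expression of the small subunit gene mrps-5 is known to lengthen life and to induce the mitochondrial unfolded protein response. FKH-4 belongs to the forkhead family of transcription factors.

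FKH-4 binding was measured by chromatin immunoprecipitation and sequencing (ChIP-seq) of whole hermaphrodite L1 larvae, starved after bleaching and collected 6 h after synchronization. The strain, OP100, has the genotype unc-119(tm4063) III; wgIs100 and stably expresses FKH-4 with a C-terminal GFP-FLAG tag from a transgene; an antibody against GFP was used. The larvae form 1 group of 2 biological replicates of the same strain, so every comparison is between peak lists or between genes. No control sample was analysed here, the sources used here do not state the promoter that drives the transgene, and read depth is unknown. The reproducible set (IDR, irreproducible discovery rate), which the authors made from both replicates, held 1189 peaks. Relaxed lists, which also keep weak peaks, held 22442 peaks in replicate 2 and 30000 each in replicate 1 and the pooled reads. The pooled list is labelled as holding peaks and background. Deposited -log10 q-values went down to 0.0222 in the pooled list, 0.0779 in replicate 1 and 0.0176 in replicate 2. A relaxed summit alone is therefore no call of binding. Peaks were ranked by the authors' signal value within each list, with rank 1 the strongest, and signal is comparable within a list only. Whole larvae mix all tissues, so binding in few cells and weak binding in many cannot be told apart.

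Sequences at the summits of the 5 genes are shown because most of them hold a word that, among words of 14 bases, lay at the most IDR summits. Each is read 5′ to 3′ on the strand of the mitochondrial ribosomal protein gene, from RefSeq's WBcel235 assembly, which has the ce11 coordinates of the peak lists. Capitals mark the copy of the 14-base word. The mrpl-28 stretch is chrII:156067-156176 on the minus strand, that of mrpl-18 is chrIII:8144745-8144845 on the plus strand, that of mrpl-55 is chrIV:443814-443914 on the plus strand, and that of mrps-7 is chrIV:14767861-14767961 on the minus strand. For mrps-35 only the 30 bases around the copy are shown, chrV:18981196-18981225 on the plus strand, which lie beside the summit. The stretch was cut because an annotated untranslated region overlaps the longer stretch around that summit.
mrpl-28: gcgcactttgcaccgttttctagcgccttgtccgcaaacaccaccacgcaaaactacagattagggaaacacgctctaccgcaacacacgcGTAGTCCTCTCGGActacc
mrpl-18: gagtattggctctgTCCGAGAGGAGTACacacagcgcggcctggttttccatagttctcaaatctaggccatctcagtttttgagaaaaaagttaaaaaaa
mrpl-55: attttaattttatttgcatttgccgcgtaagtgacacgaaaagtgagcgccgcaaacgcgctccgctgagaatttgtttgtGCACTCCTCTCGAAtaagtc
mrps-7: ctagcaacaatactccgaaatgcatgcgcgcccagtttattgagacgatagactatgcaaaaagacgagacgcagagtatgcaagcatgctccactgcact
mrps-35: ccgccggtGTACTCCTCTCCGAcaacgggt

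The word, TCCGAGAGGAGTAC, stood unaltered upstream of mrpl-18. Counted from 1 at its 5′ end, the mrpl-28 copy carried G11C, the mrps-35 copy C3G, and the mrpl-55 copy C2T and A13G. The copies of mrpl-28, mrpl-55 and mrps-35 lay on the strand opposite to the gene, and that of mrpl-18 on its own strand. Midpoints of the 4 copies were 29 to 47 bp from the IDR summit. Around the mrps-7 summit the closest match had 5 mismatches, so no copy was counted there.

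All 5 reproducible peaks lay in the stronger part of the IDR set, just upstream of the gene, and were found in both replicates. The strongest belonged to mrps-35, a small subunit protein without a listed bacterial counterpart. Its summit at V:18981176 ranked 45 of 1189 with a signal of 256, and the matching peaks ranked 40 in replicate 1 (signal 106) and 47 in replicate 2 (signal 149.8). Next came mrpl-18, the counterpart of a bacterial protein that contacts the ribosomal 5S RNA, with its summit at III:8144795. It ranked 126 (signal 171), and 218 and 77 in replicates 1 and 2 (signals 55.3 and 122.7). These 2 peaks stood far above the IDR median signal of 80.4, and both lie between divergent genes, so they are not those of a single promoter.

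The mrpl-28 gene encodes a large subunit protein with a bacterial counterpart. Its summit at II:156126 ranked 309 (signal 114), with ranks of 424 in replicate 1 (signal 40.2) and 287 in replicate 2 (signal 71.8). For mrpl-55, a large subunit gene without a listed bacterial counterpart, the summit at IV:443864 ranked 510 (signal 87.9), with ranks of 622 and 530 in the replicates (signals 32.5 and 52.2). Neither peak lay in the window of another coding gene. The counterpart of mrps-7 in bacteria organises the head of the small subunit. Its summit at IV:14767911 ranked 514 (signal 87.6), with ranks of 393 and 828 (signals 41.8 and 39.9). Replicate summits lay 0 to 40 bp from the IDR summits in all 5 cases, and each peak was among the 1189 strongest of each replicate.

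The 5 IDR summits stood between 117 and 220 bp upstream of the TSS, at -130 bp for mrps-35, -220 for mrpl-18, -117 for mrpl-28, -121 for mrpl-55 and -181 for mrps-7. Their median was -130 bp. Over the 953 coding genes with an IDR summit the median of the strongest summit was -242 bp, and 54.6% of those genes had it within 300 bp upstream. The same peaks were also counted for C14B9.8 (with mrpl-18), Y57G11C.3 (with mrps-7) and sws-1 (with mrps-35), the last a gene of homologous recombination. The nearest TSS belonged to the ribosomal gene itself for mrpl-28, mrpl-55 and mrps-7, and to C14B9.8 and sws-1 for the others. No annotated non-coding RNA gene lay within 200 bp of these summits (0 for each).

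Both subunits carried reproducible peaks at a similar share. In the large subunit 3 of 41 genes had an IDR summit (7.32%, 95% exact Clopper-Pearson interval 1.54 to 19.9), and in the small subunit 2 of 29 (6.90%, 0.846 to 22.8). Over all 70 genes the interval ran from 2.36 to 15.9%, which holds the 4.77% of all coding genes. The IDR count of 5 members thus did not stand apart from that background at this number of genes. The reading depends on the peak set: with the 1189 strongest peaks of either replicate alone, 8 of 70 members had a summit, with an interval of 5.07 to 21.3% that lies above the background of each replicate. By protein number, 43 members have a bacterial counterpart, of which 3 were bound, and 2 of the other 27 were. Intervals cover counting error only, and genes that share a summit are not independent.

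**Figure D1:**
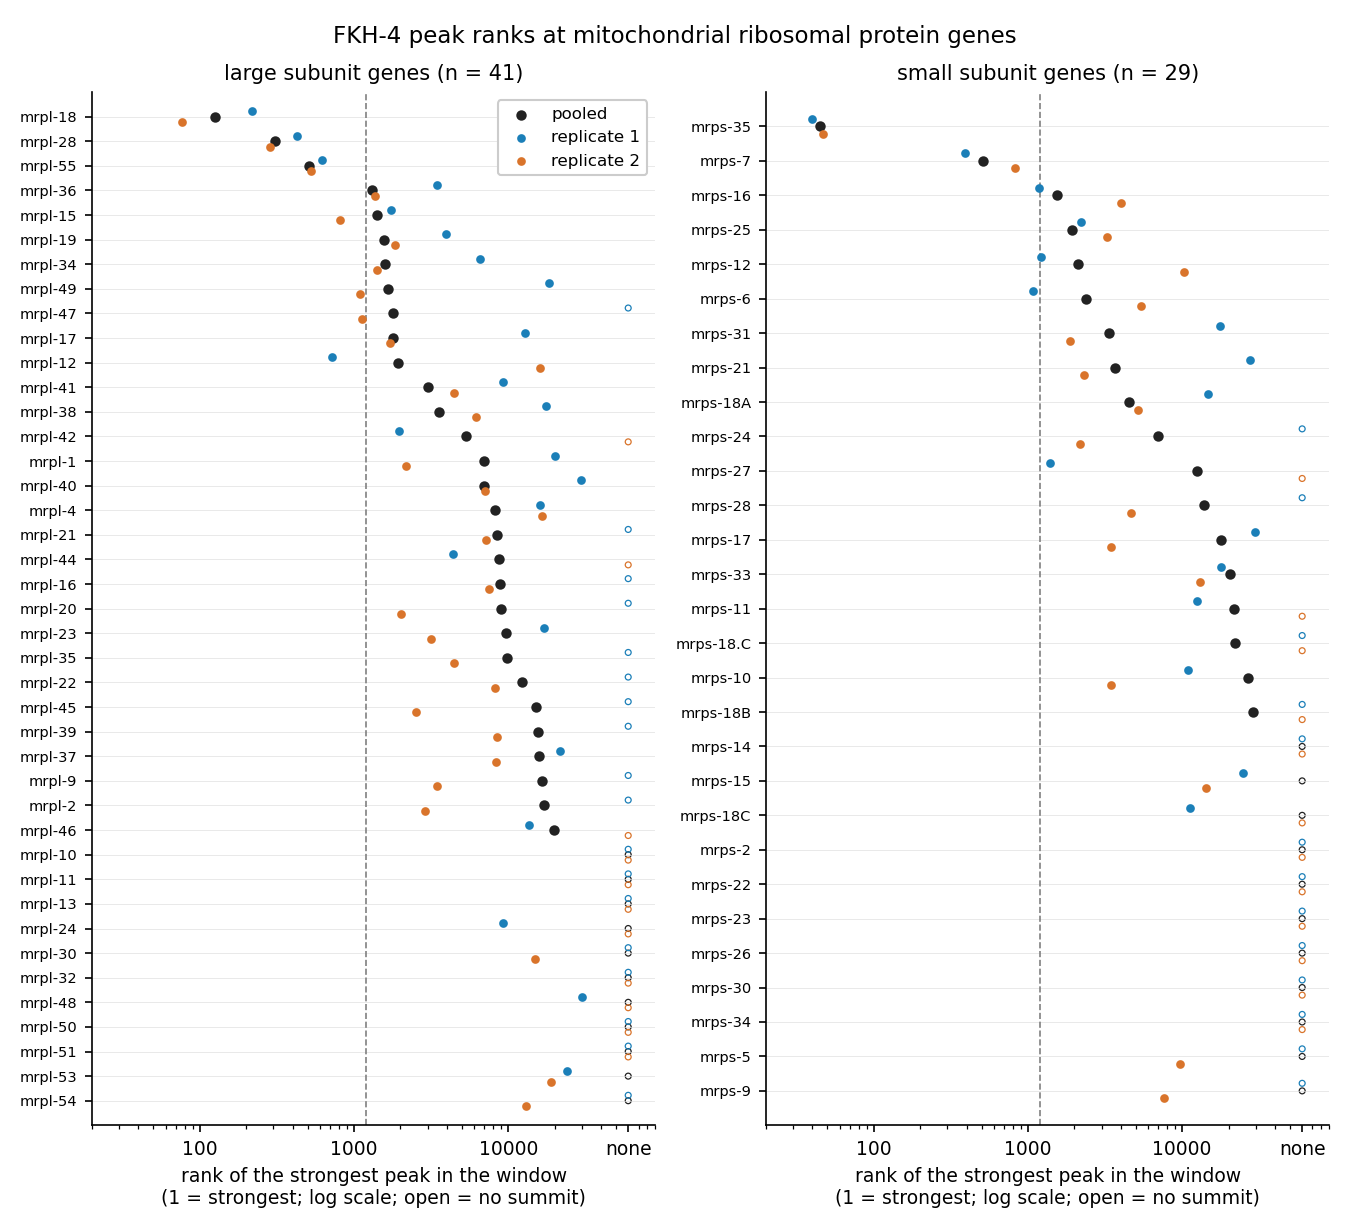
Rank of the strongest FKH-4 peak in the promoter window of each of the 70 genes in the pooled list (black), replicate 1 (blue) and replicate 2 (orange), on a log axis with the strongest peaks on the left; open circles mark lists with no summit in the window and the dashed line marks rank 1189. The 5 genes left of the line in the pooled list were left of it in both replicates, and 22 genes had no pooled summit.

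A group of 10 members lay just below the reproducible set by rank. No member had its strongest pooled peak between ranks 595 and 1189, where 2.05% of all coding genes did. For 10 members (14.3%) it lay between ranks 1190 and 2000, beside 2.47% of all coding genes. Within the 2000 strongest pooled peaks, 15 of 70 members (21.4%, 12.5 to 32.9) had a summit in the window, beside 7.24% of coding genes. That number of peaks was chosen after the values were seen. With the 5000 strongest peaks the members reached 22 of 70 (31.4%), beside 12.8%. Any pooled summit was present for 48 of 70 (68.6%, 56.4 to 79.1), beside 40.8%. Members with 1 TSS, for which the number of starts plays no part, gave 43 of 62 (69.4%) beside 35.3% of coding genes with 1 TSS. The members' share of genes with a summit was thus above that of all coding genes in these weaker sets.

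The 10 genes comprised 8 of the large and 2 of the small subunit, with pooled signals from 40.3 to 49.2, where the IDR set ended at 51.7. Their deposited pooled -log10 q-values ran from 0.875 (mrpl-12) to 1.80 (mrpl-36), where the lowest of the IDR set was 2.20. Closest to the edge was mrpl-36, which encodes one of the smallest proteins of the large subunit. It ranked 1307 in the pooled list (signal 49.2, -595 bp from the TSS), 3443 in replicate 1 (signal 18.6, at -725 bp) and 1373 in replicate 2 (signal 28.9, at -595 bp). The mrpl-15 peak ranked 1402 (signal 47.3) at -706 bp, and 815 in replicate 2 at -717 bp. In replicate 1 the strongest mrpl-15 peak, of rank 1739, lay elsewhere in the window, at -299 bp. The mrps-16 peak ranked 1534 (signal 45.0) at 80 bp downstream of the TSS, and 4028 in replicate 2 (signal 17.2) at 85 bp. In replicate 1 the strongest mrps-16 peak, of rank 1175 (signal 24.7), had its summit at 199 bp downstream. The order between the replicates thus differed from gene to gene. For mrpl-19 the ranks were 1562 in the pooled list, 3936 in replicate 1 and 1845 in replicate 2, with a pooled signal of 44.5. For mrpl-34 they were 1591, 6606 and 1412 (signals 44.1, 15.9 and 28.4), and the summit was shared with lid-1.

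Of the other 5, most differed widely in rank between the replicates. The mrpl-49 summit, at -132 bp and shared with the cytosolic ribosomal protein gene rpl-28, ranked 1666 in the pooled list, 18332 in replicate 1 and 1086 in replicate 2 (signals 43.1, 11.7 and 33.5). At mrpl-47, 26 bp downstream of a TSS, the pooled rank was 1787 and that of replicate 2 was 1127 (signals 41.7 and 32.7), and replicate 1 had no summit in the window. At mrpl-17, shared with the RNA helicase gene vbh-1, the ranks were 1793, 12839 and 1707 (signals 41.7, 13.2 and 25.5). These 3 genes had their stronger peak in replicate 2. The mrps-25 peak, shared with Y55F3AM.13, was more even, with ranks of 1923, 2193 and 3239 (signals 40.3, 20.7 and 18.8). The opposite contrast was seen at mrpl-12, the counterpart of the bacterial stalk protein that recruits translation factors, which ranked 1930 in the pooled list, 725 in replicate 1 and 16118 in replicate 2 (signals 40.3, 29.9 and 10.6).

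**Figure D2:**
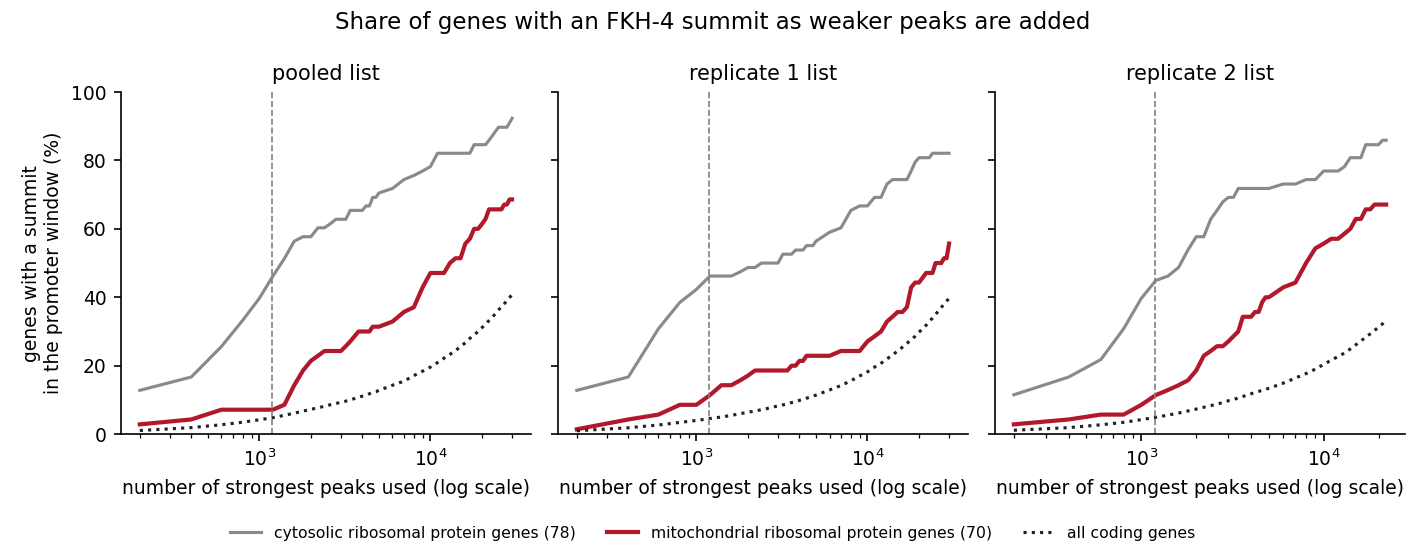
Share of genes (y axis, %) with a summit in the promoter window as more of the strongest peaks of a list are used (x axis, log scale), for the pooled list and each replicate; the dashed line marks 1189 peaks. In each of the 3 lists at 2000 peaks and beyond, the mitochondrial ribosomal protein genes ran above all coding genes and below the cytosolic ribosomal protein genes.

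Replicate 2 placed summits at more of the members than replicate 1, although its list was shorter. Any relaxed summit was present for 39 of 70 members in replicate 1 (55.7%), beside 39.8% of coding genes, and for 47 of 70 in replicate 2 (67.1%), beside 33.5%. Both replicates had one for 31 members (44.3%, 32.4 to 56.7), beside 21.7%, and 23 of the 31 had summits of the 2 replicates within 200 bp of each other. Summits were present in replicate 1 alone for 8 members, in replicate 2 alone for 16 and in neither for 15. Across the 31 members with both, Spearman's rho of the best ranks was 0.50, a description across genes of the same 2 libraries. Among the 1189 strongest peaks of a single replicate, 8 members had a summit in replicate 1 (11.4%, beside 4.52% of coding genes) and 8 in replicate 2 (11.4%, beside 4.88%). The 5 genes of the IDR set were in both groups of 8. Replicate 1 added mrpl-12, mrps-6 and mrps-16, and replicate 2 added mrpl-15, mrpl-47 and mrpl-49.

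The well studied gene mrps-5 was among the members with no pooled summit. It had none in replicate 1 either, and in replicate 2 it had a peak of rank 9708 (signal 12.7) at -937 bp from the TSS. In the pooled list, 22 members had no summit in the window, and 13 had none in any of the 3 relaxed lists. The mrpl-1 and mrps-24 genes, the 1 pair of members in divergent order, have TSSs 344 bp apart and share 1 pooled summit, of rank 6971 (signal 26.2). That summit was nearest to the TSS of a further gene, emc-6. It met a peak of rank 2172 in replicate 2 (signal 22.6) and none in the mrps-24 window in replicate 1.

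Many of the genes follow another gene so closely that they have little upstream sequence of their own. Many C. elegans genes are transcribed in operons, whose downstream genes have no promoter directly upstream. For 28 of 70 members (40.0%) a coding gene on the same strand ended within 500 bp of the gene's start, beside 20.1% of all coding genes. The gap had a median of 106 bp and was 80 to 120 bp in 19 of the 28. This arrangement is called tandem here and is no operon call. Of the tandem members 0 of 28 had an IDR summit (interval up to 12.3%), beside 3.32% of all tandem genes, and 1 had a summit among the 2000 strongest pooled peaks (3.57%, beside 5.01%). Among the other 42 members 5 had an IDR summit (11.9%, 3.98 to 25.6), beside 5.14%, and 14 had a summit among the 2000 strongest (33.3%, 19.6 to 49.5), beside 7.80%. Any pooled summit was present for 13 of 28 tandem members (46.4%, beside 39.4%) and 35 of the other 42 (83.3%, beside 41.2%). Whether this contrast goes beyond the number of genes was not tested.

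A further 28 members had the TSS of a divergent coding gene within 1000 bp upstream, and 14 had neither arrangement. Divergent members had 3 IDR summits in 28 (10.7%), beside 12.5% of all divergent genes that are not tandem, and 8 summits among the 2000 strongest pooled peaks (28.6%, beside 643 of all 3580 such genes). In the 14 with neither arrangement there were 2 IDR summits (14.3%, beside 3.02%) and 6 among the 2000 strongest (42.9%, 17.7 to 71.1, beside 4.86%). The 6 were mrpl-28, mrpl-55, mrpl-36, mrpl-15, mrps-16 and mrpl-47. Of their pooled summits, that of mrps-16 also lay in the window of ilcr-2, and the others lay in no other coding window.

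**Figure D3:**
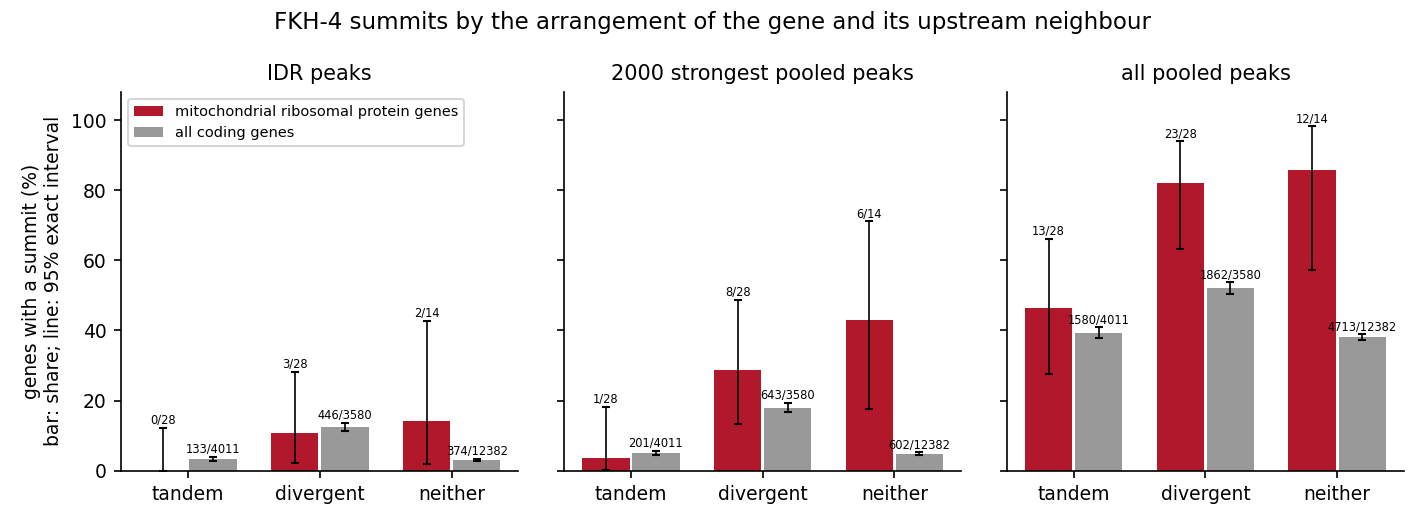
Share of genes with a summit (y axis, %) for mitochondrial ribosomal protein genes (red) and all coding genes (grey) by gene arrangement, for the IDR peaks, the 2000 strongest pooled peaks and all pooled peaks; bars are shares, lines are 95% exact intervals and the fractions are counts. Tandem members had 0 of 28 IDR summits, and members with neither arrangement had 6 of 14 among the 2000 strongest peaks.

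Several tandem members nevertheless belonged to a run of genes whose first gene carried a reproducible peak. Following the run upstream to its first gene, which was done after the values were seen, 7 of 28 tandem members (25.0%, 10.7 to 44.9) had an IDR summit in the window of that gene, beside 10.5% of all tandem genes. The strongest stood at tag-124, the first gene of a run that holds mrpl-53 as a later member. It ranked 39 in the IDR set (signal 268), 57 in replicate 1 and 34 in replicate 2, and lay at -20 bp from the tag-124 TSS and 6350 bp from that of mrpl-53. The peak of F29B9.11, upstream of mrps-21, ranked 221 (signal 133) and was the nearest of the 7 to its member, at 1124 bp. For mrps-30, behind the translation initiation factor gene eif-3.E, the peak ranked 362 (signal 107).

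The remaining 4 first genes held weaker peaks. They were clsp-1 before mrpl-54 (rank 396, signal 102), the proteasome gene rpn-3 before mrpl-32 (rank 421, signal 98.8), the nuclear RNA interference gene nrde-2 before mrps-14 (rank 590, signal 80.8) and W04D2.4 before mrps-11 (rank 834, signal 65.5). The nrde-2 summit lay at -945 bp from its TSS. The rpn-3 peak was uneven between replicates, with rank 2105 in replicate 1 (signal 20.9) and 268 in replicate 2 (signal 74.3). Counting a summit at the gene's own window or at the first gene of its run gave 12 of 70 members (17.1%, 9.18 to 28.0), beside 6.68% of coding genes. Which genes of a run are transcribed from these places was not measured.

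On the 6 nuclear chromosomes, the 14-base word had 175 exact copies, 428 with at most 1 mismatch and 1430 with at most 2. The word was frequent at the bound members. It was chosen because no other word of its length lay within 100 bp of more IDR summits (35 of 1189). The member peaks took part in that search, so its presence at members is a description. With at most 1 mismatch it occurred in 71 IDR peaks (5.97%), in 2 windows of the same length centred 500 bp to the side of those summits (0.168%), and in 3 of the 5 member peaks. With at most 2 mismatches the counts were 89 IDR peaks (7.49%) and 4 of 5. In the whole promoter window, 5 of 70 members (7.14%) held a copy with at most 1 mismatch, beside 225 of 19973 coding genes (1.13%). Of those 225 genes, 105 (46.7%) had an IDR summit. The word thus accompanied most of the reproducible member peaks and few of the IDR peaks as a whole.

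Of the 6 members with a copy of at most 2 mismatches, 4 were bound and had taken part in the choice of the word. Besides these, mrpl-36 held a copy with 1 mismatch at -723 bp from its TSS, and mrps-31 held one with 1 mismatch at -143 bp. The strongest pooled summit within 200 bp of the mrpl-36 copy ranked 1307 and lay 128 bp away, while the replicate 1 summit stood at -725 bp, within the copy. At mrps-31 the pooled summit ranked 3372 (signal 32.5) and lay 89 bp from the copy. Both unbound members with a copy thus had a pooled summit within 200 bp of it, as did 69 of the 346 coding genes with a copy and no IDR summit (19.9%). Among the 10 members ranked from 1190 to 2000 in the pooled list, 0 had a copy within 100 bp of the summit, and 0.863% of all 811 pooled peaks of those ranks did.

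**Figure D4:**
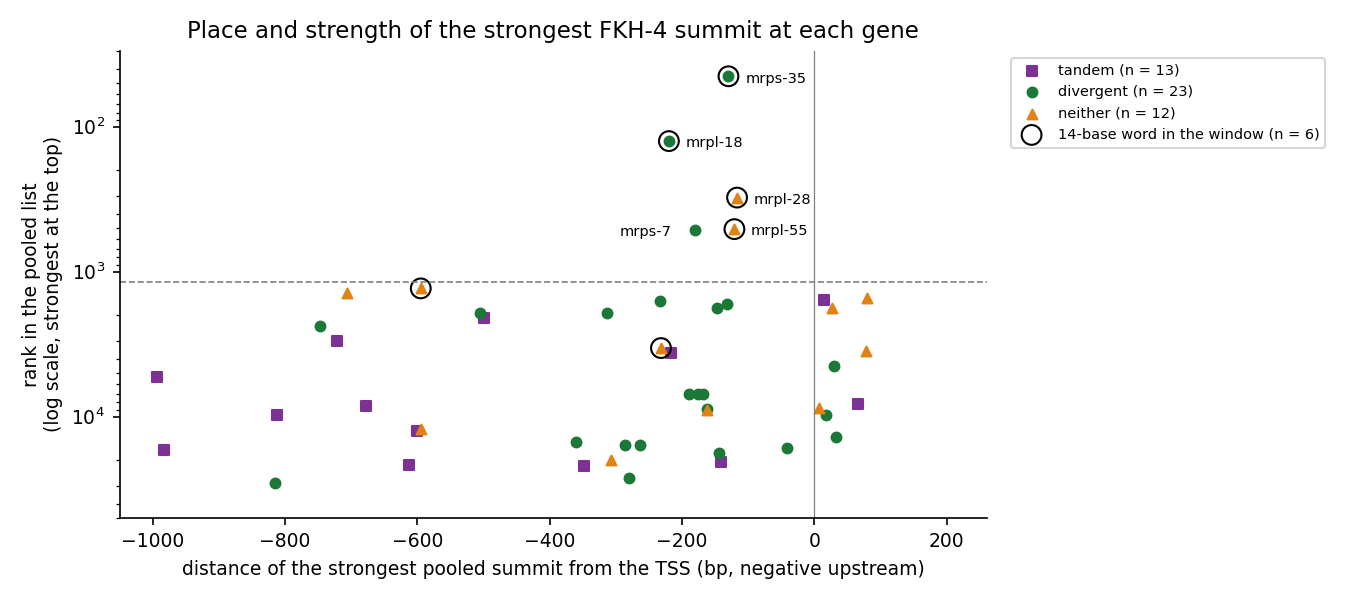
Distance of the strongest pooled summit from the TSS (x axis, bp) against its rank in the pooled list (y axis, log scale, strongest at the top) for the 48 members with a pooled summit; colours and shapes give the gene arrangement and rings mark the 6 genes with a 14-base word of at most 2 mismatches. The 5 named genes above the dashed line at rank 1189 lie 117 to 220 bp upstream, and 4 of them carry the ring.

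The forkhead words TGTTTAC and TGTTTA were not seen at the member summits. Other forms of the forkhead site were not searched. The forkhead core TGTTTAC occurred on either strand within 50 bp of 0 of 5 member summits, in 12 of 1189 IDR peaks (1.01%) and in 4.77% of all coding promoters, read as 250 bases before to 50 after the TSS. The shorter TGTTTA, which lies within the longer core, was in 0 of 5 member peaks, 6.06% of IDR peaks and 24.9% of promoters. Searched windows differ in length, 101 bases around summits and 300 in promoters, so these shares were not compared with each other. Also in 0 of 5 member peaks were the E-box CACGTG (in 4.46% of IDR peaks and 5.83% of promoters) and the GATA motif GATAAG (2.19% and 16.7%). The same held for the heat shock motif TTCTNGAA (2.94% and 12.8%), the word CGCGAA (8.33% and 6.82%), the word GAGAGAG (7.91% and 6.79%) and the word CCGCCTC (0.925% and 2.05%). With shares this low in the IDR peaks as a whole, 0 of 5 does not set the member peaks apart. That the letters were absent from these windows says nothing on how FKH-4 is held there.

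No mitochondrial ribosomal protein gene lies on the X chromosome. Chromosome III held 22 of the 70 (31.4%, beside 13.2% of coding genes), the first chromosome held 15, II 12, IV 11 and V 10. IDR summits fell at 1 member on II, 1 on III, 2 on IV and 1 on V. On chromosome III, where 8.26% of coding genes were bound, 1 of 22 members was. The first chromosome, where 6.39% of coding genes were bound, held none of the 5 bound members. It held 5 of the 15 members with a summit among the 2000 strongest pooled peaks.

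Among the lists compared, FKH-4 summits were most frequent at the cytosolic ribosomal protein genes. Among the 78 cytosolic genes 36 had an IDR summit (46.2%, 34.8 to 57.8), led by rpl-35, rpl-3 and rpl-12 (signals 338, 274 and 243). This interval does not meet that of the mitochondrial members, 2.36 to 15.9%. Of the genes for mitochondrial translation factors and tRNA synthetases 3 of 19 were bound (15.8%, 3.38 to 39.6). They were gfm-1, tufm-2 and ears-2, which encode 2 elongation factors and a glutamyl-tRNA synthetase. The small subunit protein gene dap-3, which the names leave out of the 70, belongs to that list and had no IDR summit.

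In the respiratory chain and ATP synthase 5 of 43 genes were bound (11.6%, 3.89 to 25.1), with cox-5A, atp-5 and isp-1 the strongest. Of 14 genes of mitochondrial stress response and proteostasis 1 was bound, the chaperonin gene hsp-60 (7.14%, 0.181 to 33.9). Their intervals overlap that of the mitochondrial ribosomal protein genes. Whether the shares differ in the IDR set was not tested, and overlap of intervals does not decide it. Among the 2000 strongest pooled peaks the shares were 57.7% for cytosolic ribosomal proteins, 25.6% for the respiratory chain, 15.8% for translation factors and synthetases and 14.3% for the stress list, beside 21.4% for the mitochondrial ribosomal proteins. The order of the mitochondrial lists thus changed with the peak set. With any pooled summit the shares were 92.3% for cytosolic ribosomal proteins, 76.7% for the respiratory chain, 63.2% for translation factors and synthetases and 64.3% for the stress list, beside 68.6% for the mitochondrial ribosomal proteins.

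**Figure D5:**
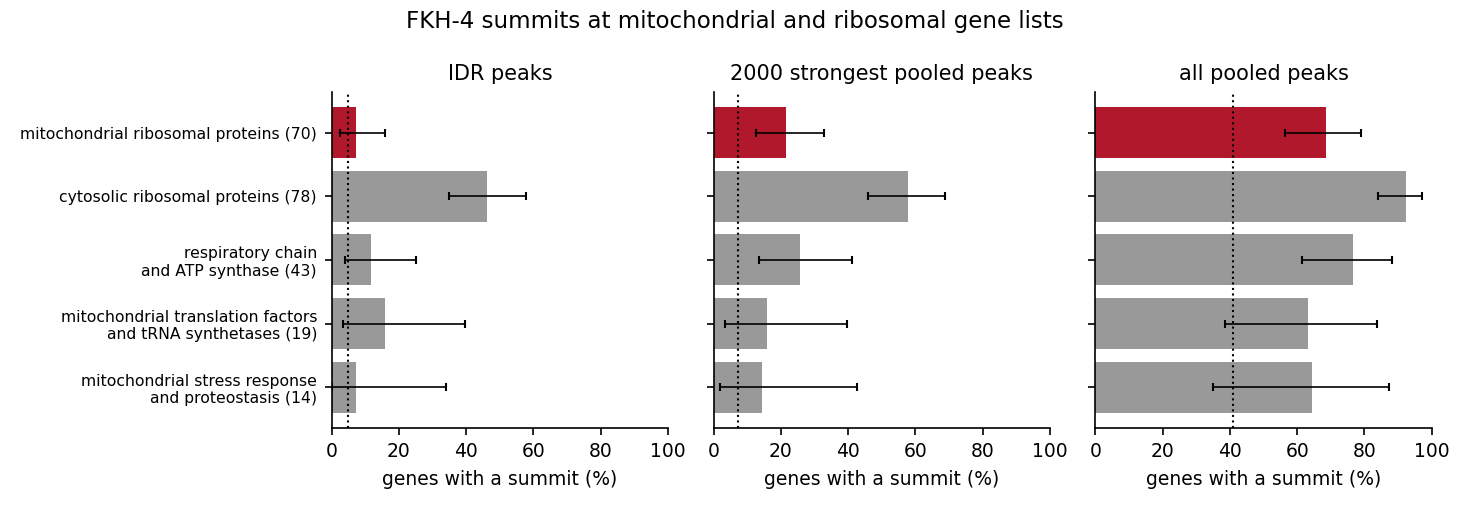
Share of genes with a summit (x axis, %) in each list, with 95% exact intervals as lines, the number of genes in brackets and the share of all coding genes as a dotted line, for the IDR peaks, the 2000 strongest pooled peaks and all pooled peaks. The mitochondrial ribosomal proteins (red) stood near the background for IDR peaks at 7.14% and above it at 21.4% and 68.6% for the weaker sets.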

How the data were processed

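Peak lists of 2 ChIP-seq replicates were used as the authors deposited them on ce11. Per the file listings beside them, each relaxed list came from alignments and a further file, which the same listings name for control-normalised tracks. The IDR set came from the relaxed lists of both replicates and of the pooled reads. Aligner, peak caller and IDR threshold: not given in the sources used here. The signal value of each peak is the authors' own, with a scale that is not given, and served only for ranks. In the IDR peaks, the deposited −log10 q-values lay between 2.20 and 3.30; no test used them. Both lists of 30000 peaks end at that number.

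Genes and coding transcripts came from Ensembl release 115 and sequence from RefSeq, both WBcel235. Assignment of summits was tested on simulated data. Analysis used Python 3.11.15, pandas 2.3.3, numpy 2.4.6 and SciPy 1.17.1. Members and lists were chosen with earlier results of these data known, so counts stand beside the share of all coding genes and no list was tested. Of the genes listed for translation factors and synthetases, 9 were absent from the annotation. Named genes are members with an IDR summit, the 10 members without one that ranked best in the pooled list, mrps-5, and up to 3 bound genes per comparison list; any other gene was chosen with its values in view. The window, peak set, gene assignment and replicate were varied. The ce10 lists were not used here.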

Additional observations from a re-analysis of the deposited data

How the results depend on the processing

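The 5 members with an IDR summit were the same with a window of 500 bp upstream, with the stronger part of the IDR set by signal and with the TSSs of every transcript, an alternative chosen after seeing the data; a window of 2000 bp added mrps-21. Assigning each peak to the nearest TSS left 3 members, 1 of them of the small subunit. The 1189 strongest peaks of a single replicate gave 8 members in each case, 4 to 6 of the large and 2 to 4 of the small subunit. The shares of coding genes were 4.52% in replicate 1 and 4.88% in replicate 2. The 2000 strongest pooled peaks, added after seeing the data, gave 15 members (beside 7.24% of coding genes), 11 of the large and 4 of the small subunit. The median summit position of -130 bp moved to -155.5 bp with the wide window, -121 bp with the nearest TSS, -147 bp with 2000 peaks, and from -149 to -147.5 bp without a replicate. Using only the 5000 strongest peaks of each list, 22 members had a pooled summit and 10 had one in both replicates, against 48 and 31. The shares of coding genes were 12.8% and 7.09%, against 40.8% and 21.7%. The settings differ in the peaks they admit or in how they assign the same peaks to genes. No paired analysis was possible because there is 1 group. Read depth is unknown, intervals cover counting error, and 2 replicates leave the spread between cultures poorly measured.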
